A study of Drosophila melanogaster with 11 samples.

Results

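The meiotic chromosome genes followed here are 10 of the 17753 genes in the count table. They are corolla, c(3)G, c(2)M, cona, ord, mei-W68, mei-P22, mei-218, sunn and solo. corolla was chosen by its measured level, as 1 of the genes with the largest increase from Ctrl to DomKD embryos, so its values in these libraries are a description, without a test. The other 9 were taken by name, as further genes that build or act on meiotic chromosomes, to ask whether the higher level of corolla was shared. All 10 identifiers were found in the table.

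RNA-seq was made from Drosophila melanogaster embryos at stage 5, when the zygotic genome is activated, and from unfertilized eggs. Ctrl embryos (3 libraries, labelled with genotype t180) came from mothers with a control hairpin line, and DomKD embryos (4 libraries, genotype t216) from mothers with a hairpin RNA against domino. In both, the hairpin was driven in the maternal germline by mat-alpha-Gal4, so it acted on what the mother made and put into the egg. The eggs (4 libraries) were laid by Ctrl mothers and hold maternal RNA without zygotic transcription. Domino is the chromatin remodeller that places the histone variant H2A.Z, and the hairpin targets both of its isoforms. Each group is 1 genotype, so the knockdown and any other difference between the fly lines cannot be told apart. Nothing states whether the replicates were separate collections, and p-values measure the spread between these libraries only.

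In female meiosis of the fly, homologous chromosomes are held along their length by the synaptonemal complex, a zipper-like protein structure. Its lateral elements lie on the chromosome cores, transverse filaments span the gap and a central region joins the filaments. Cohesion proteins keep sister chromatids together, and a Spo11-type enzyme cuts the DNA to start recombination, some of which is resolved as crossovers. These proteins act in the germline of the ovary, well before an egg is laid, so stage 5 embryos are not a tissue in which they are known to work.

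Library totals were 12642275 to 16310645 counts in Ctrl embryos, 11809453 to 15712506 in DomKD embryos and 15387133 to 17700171 in eggs. The targeted gene dom had 1985, 1857 and 1924 CPM (counts scaled to the normalized library total) in Ctrl embryos and 67.6, 76.2, 107 and 57.0 CPM in DomKD embryos. Its log2 fold change was -4.66 (SE 0.18, adjusted p = 1.243e-06, from the quasi-likelihood test of edgeR, adjusted by Benjamini-Hochberg over all genes tested, as are all adjusted p-values given here). Within each group, log2 CPM of replicates correlated across genes at r from 0.990 to 0.998. A correlation over all genes does not exclude that a few genes differ in 1 library, as the wide spread of the eggshell genes between Ctrl libraries below shows.

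corolla, which encodes a protein of the central region of the synaptonemal complex, was the gene that led to this set. It lies on chromosome X from 17629791 to 17632047 (dm6, minus strand, FBgn0267967), and no annotated gene overlaps it. Its level was 6.77, 6.83 and 8.71 CPM in the Ctrl embryo libraries. In the DomKD embryo libraries it was 54.4, 39.7, 38.2 and 41.3 CPM. Every DomKD library was above every Ctrl library, and the lowest DomKD library was well above the highest Ctrl library. The fitted log2 fold change was 2.54 (SE 0.16), or 5.81-fold, and ranked 7 of 7727 genes tested. In bulk embryos, more cells with the transcript and more transcript per cell cannot be told apart.

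The higher level of corolla was not shared by the meiotic chromosome genes as a group. Of the other 9, 5 had enough counts to be tested between DomKD and Ctrl embryos: c(3)G rose, c(2)M and mei-218 fell, and solo and mei-W68 were not called. Over all 7727 genes tested, 26.1% were called, 10.6% higher and 15.5% lower, and a set of 5 genes with 1 higher and 2 lower is too small to be read apart from these shares. The libraries of both groups did not overlap for 2 of the 5, c(3)G and mei-218, against 34.9% of all genes tested. The other 4, cona, ord, sunn and mei-P22, had a mean under 10 counts, the limit for a test. The plot of levels by library shows corolla and c(3)G side by side as the genes with DomKD libraries above all Ctrl libraries.

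**Figure D1:**
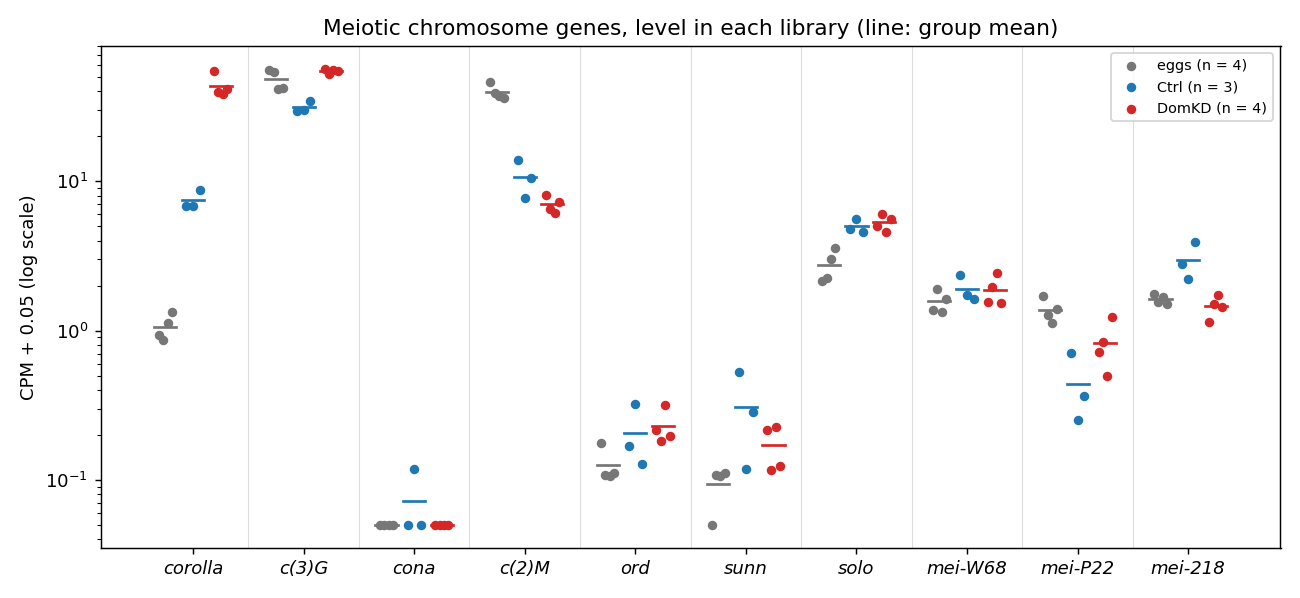
Level of each of the 10 genes in every library, in CPM plus 0.05 on a log axis; points are libraries, short lines group means, grey eggs (n = 4), blue Ctrl embryos (n = 3) and red DomKD embryos (n = 4). corolla had a mean of 7.43 CPM in Ctrl embryos against 43.4 CPM in DomKD embryos, c(3)G moved from 31.2 to 55.0 CPM, and cona, ord and sunn lay near or at 0 in all groups.

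Among the synaptonemal complex genes other than corolla, c(3)G rose. It encodes the transverse filament protein, the counterpart of SYCP1 of mammals, and lies on 3R from 15789473 to 15792579 (minus strand, FBgn0000246). Its level was 29.4, 29.9 and 34.3 CPM in Ctrl embryos. It was 56.7, 52.3, 55.8 and 55.1 CPM in DomKD embryos. The DomKD libraries were close to each other and all above the Ctrl libraries. The log2 fold change was 0.81 (SE 0.087, adjusted p = 0.0003343), a 1.75-fold rise, and it stayed past the threshold in all 16 alternative settings. Its 22 nt of exon overlap with Uros2 on the other strand make up 0.837% of its exons.

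c(2)M moved the other way. It encodes a lateral element protein related to the kleisins, the ring-closing subunits of cohesin, and lies on 2L from 16303264 to 16305940 (plus strand, FBgn0028525). Its level was 13.8, 7.64 and 10.4 CPM in Ctrl embryos. It was 8.0, 6.46, 6.12 and 7.22 CPM in DomKD embryos. The groups overlapped, because DomKD replicate 1 was above Ctrl replicate 3. The log2 fold change was -0.63 (SE 0.20, adjusted p = 0.04798), just under the threshold. Of the 7 fits that left out 1 library, only the one without Ctrl replicate 3 kept the call, with adjusted p up to 0.1819 in the others, and without Ctrl replicate 2 the log2 fold change was -0.39. With a replicate block the adjusted p was 0.07387, and with size factors set on zygotic genes the log2 fold change was -0.53 and the adjusted p 0.214. The call held in 8 of 16 alternatives. c(2)M shares 140 nt of exon, 6.189% of its length, with CG5861 on the other strand, and CG5861 had a log2 fold change of -0.12 (adjusted p = 0.3054).

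cona encodes a small central region protein that works with the transverse filaments. It lies on 3R from 18385828 to 18386887 (plus strand, FBgn0038612). It had 1 count in Ctrl replicate 3 and 0 in the other 10 libraries. The synaptonemal complex genes were therefore far apart in these embryos: in DomKD embryos corolla and c(3)G were high, c(2)M was at under 10 CPM and cona was not detectable at this depth.

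Of the cohesion genes, solo was the one with enough counts to test. solo encodes a protein that protects cohesion at meiotic centromeres, and ord and sunn encode its partners in that role. solo lies on 2L from 15061656 to 15072133 (plus strand, FBgn0283440) and shares exons with vas: 563 nt, 16.871% of the exon length of solo, are in both on the same strand. The level of solo was 4.75, 5.54 and 4.55 CPM in Ctrl embryos. It was 5.0, 6.0, 4.53 and 5.52 CPM in DomKD embryos. The groups overlapped throughout. The log2 fold change was 0.084 (SE 0.17, adjusted p = 0.7476), with a 95% interval of -0.25 to 0.42, so a 2-fold change in either direction lies outside the interval.

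vas, a germline RNA helicase gene, was at 24.9, 25.3 and 18.5 CPM in Ctrl embryos and at 29.1, 40.3, 27.9 and 33.5 CPM in DomKD embryos. Its log2 fold change was 0.51 (SE 0.16, adjusted p = 0.04328). Reads in the shared exons cannot be assigned to solo or vas from gene counts, and their part in the level of solo was not tested. ord had 2, 4 and 1 counts in Ctrl embryos and 2, 2, 3 and 2 in DomKD embryos. sunn, on 3L from 11728348 to 11732016 (plus strand, FBgn0052088), had 8, 1 and 3 counts in Ctrl embryos and 2, 1, 2 and 1 in DomKD embryos. At this depth no difference could be seen for ord or sunn, and each was detected in every embryo library by a few reads only.

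The genes for double-strand breaks stayed low in every group. mei-W68 encodes the Spo11 of the fly, which makes the breaks, and mei-P22 encodes its partner in break formation. mei-W68 was at 2.32, 1.69 and 1.57 CPM in Ctrl embryos. It was at 1.5, 1.91, 2.40 and 1.47 CPM in DomKD embryos. On the log2 scale the difference was -0.056 (SE 0.26, adjusted p = 0.8935), with a 95% interval of -0.57 to 0.46, and its sign changed between settings. Of its exons, 806 nt (35.043%) are also exons of par-1 on the same strand, a kinase gene at 412 to 481 CPM in Ctrl and 453 to 542 CPM in DomKD embryos. Whether reads in these shared exons were counted or dropped is not given, and their part in the level of mei-W68 was not tested.

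mei-P22, on 3L from 7244388 to 7245383 (plus strand, FBgn0016036), had 11, 3 and 4 counts in Ctrl embryos. It had 8, 12, 5 and 16 counts in DomKD embryos. The groups overlapped, and the mean was under the limit of 10 counts, so it entered no test between the embryo groups.

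mei-218, which encodes an MCM-related protein needed for crossovers, fell. It lies on X from 17135985 to 17142990 (minus strand, FBgn0002709). Its level was 2.73, 2.16 and 3.85 CPM in Ctrl embryos, from 46, 32 and 49 counts. It was 1.08, 1.45, 1.69 and 1.40 CPM in DomKD embryos, from 13, 22, 19 and 19 counts. Every DomKD library was below every Ctrl library, which held in this direction for 17.9% of all genes tested. The log2 fold change was -1.05 (SE 0.27, adjusted p = 0.01837), a 2.07-fold lower level. Without Ctrl replicate 4, its highest library, the log2 fold change was -0.81 and the adjusted p 0.07314, and with a replicate block the adjusted p was 0.09457. mei-218 had a mean of 28.6 counts over these libraries, and of the 852 genes with a mean of 10 to 30 counts 30% were called lower and 4.23% higher. mei-217, annotated over the same transcript, shares 5005 nt of exon with it, which leaves 1305 nt of mei-218 in no other gene on its strand. All of the exon length of mei-217 lies in this overlap and it was listed at 0 counts in all 11 libraries, so this 0 says nothing of its expression. If reads in the overlap were dropped in counting, the level of mei-218 per length is too low, which was not tested.

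Taken per exon length, as TPM (counts scaled by length and library), the order of the genes differed between the embryo groups. In Ctrl embryos c(3)G was highest at 23.4 ± 1.95 TPM (SD, n = 3). c(2)M followed at 9.38 ± 3.18 TPM and corolla at 7.40 ± 1.06 TPM, and these 2 overlapped between libraries. In DomKD embryos corolla was at 41.1 ± 5.83 TPM and c(3)G at 39.4 ± 1.24 TPM (SD, n = 4), and they overlapped. c(2)M was at 5.79 ± 0.612 TPM there, below both in every library. solo had means of 2.92 TPM in Ctrl and 2.98 TPM in DomKD embryos, and mei-W68 1.61 and 1.49 TPM. These levels are subject to the exons that solo shares with vas and mei-W68 with par-1. mei-P22 and mei-218 were under 2 TPM on average and overlapped each other in Ctrl embryos, with the level of mei-218 subject to its overlap with mei-217, while ord, sunn and cona were under 0.2 TPM in both embryo groups.

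The eggs show which of these transcripts the mother provides. With the limit of over 5 TPM in at least 3 of 4 egg libraries, c(3)G and c(2)M were maternally deposited and the other 8 were not, against 35.7% of all genes in the table. c(3)G was at 55.4, 53.7, 41.5 and 42.1 CPM in eggs, or 37.7 ± 5.60 TPM (SD, n = 4). c(2)M was at 46.1, 39.0, 37.3 and 36.1 CPM, or 36.0 ± 4.15 TPM. The levels of the 2 genes overlapped in TPM, and both lay far above the other 8, the next of which was mei-P22 at 2.72 ± 0.520 TPM. corolla was at 0.887, 0.815, 1.07 and 1.28 CPM in eggs, from 14, 14, 19 and 21 counts.

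Comparisons with eggs used the same 4 egg libraries each time, and the Ctrl embryo and DomKD embryo libraries also enter the comparison above, so the 3 comparisons are not independent of each other. Between Ctrl embryos and eggs 85.8% of 7565 genes were called, and between DomKD embryos and eggs 88.6% of 7423. Of the 6 other genes tested in Ctrl embryos against eggs, 5 were called, 2 higher and 3 lower, where 46.6% of all genes tested were higher and 39.2% lower. Of the 6 tested in DomKD embryos against eggs, 3 were called, 1 higher and 2 lower, where 47.2% of all genes were higher and 41.4% lower. Libraries did not overlap for 5 of the 6 in Ctrl embryos against eggs, 2 higher and 3 lower (85% of all genes tested, 46.1% higher and 38.9% lower), and for 2 of the 6 in DomKD embryos against eggs, 1 in each direction (85.8% of all genes, 46% higher and 39.7% lower). Values are relative to the bulk of the RNA in each library, since nothing measures RNA per embryo.

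corolla was 7.28-fold higher in Ctrl embryos than in eggs (log2 fold change 2.86, SE 0.20) and 41.9-fold higher in DomKD embryos than in eggs (5.39, SE 0.17). No embryo library overlapped with an egg library. The gene was thus low in eggs, present in Ctrl embryos and highest in DomKD embryos. Size factors were also set on zygotic genes, those not maternally deposited by the limit above and over 5 TPM on average in Ctrl embryos. corolla is itself among these genes, so it helped to set this scale. The median log2 fold change of all genes against eggs then moved to -2.45 for Ctrl and -2.20 for DomKD embryos. On this scale the value of corolla was 0.28 for Ctrl and 3.07 for DomKD embryos.

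c(3)G was lower in Ctrl embryos than in eggs, with a log2 fold change of -0.63 (SE 0.12, adjusted p = 0.0006178). In DomKD embryos the value was 0.17 (SE 0.098, adjusted p = 0.123) and the libraries lay near those of the eggs. It was past the threshold with upper-quartile scaling (0.34, adjusted p = 0.008377) and without egg replicate 1 (0.24, adjusted p = 0.03672), and it turned to -2.14 with the size factors from zygotic genes. c(2)M was lower than in eggs in both embryo groups. c(2)M had a log2 fold change of -1.88 (SE 0.17, adjusted p = 2.071e-06) in Ctrl and -2.53 (SE 0.11, adjusted p = 1.241e-09) in DomKD embryos, a 3.69-fold and a 5.78-fold lower level. The 2 maternally deposited genes of the complex thus differed: c(2)M was lower in both embryo groups than in eggs, and c(3)G in Ctrl embryos.

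**Figure D2:**
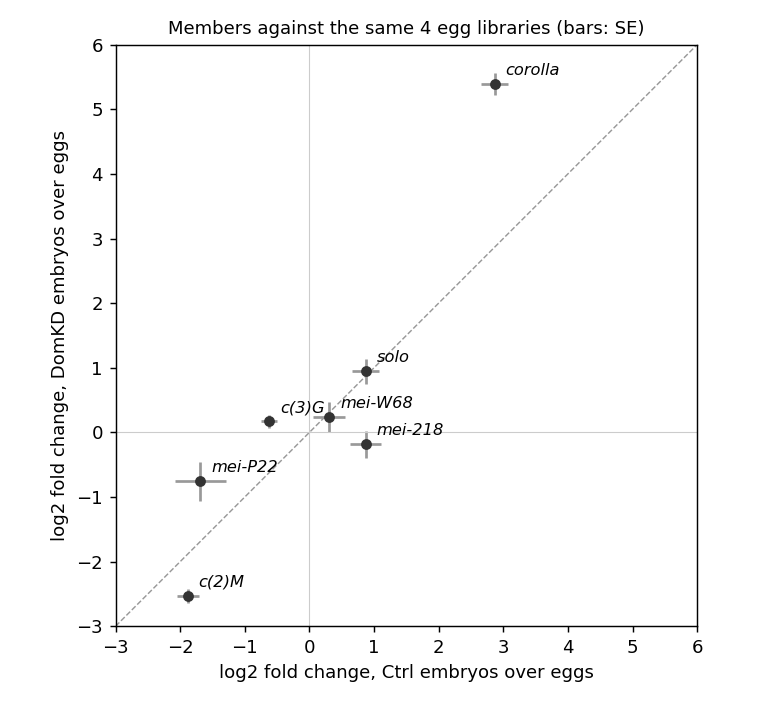
log2 fold change over eggs of the 7 genes tested, in Ctrl embryos (x axis) and DomKD embryos (y axis), with bars of 1 SE; both axes share the 4 egg libraries and the dashed line marks equal values. corolla lies above the line at 2.86 and 5.39, c(2)M lies below 0 on both axes, and mei-218 lies at 0.87 and -0.19.

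solo was at 2.09, 2.21, 2.98 and 3.53 CPM in eggs, below every embryo library. solo had a log2 fold change of 0.87 (SE 0.21, adjusted p = 0.00263) in Ctrl embryos and 0.94 (SE 0.19, adjusted p = 0.0007392) in DomKD embryos, and with the size factors from zygotic genes these turned to -1.70 and -1.36. The overlapping gene vas moved the other way, from 292, 272, 331 and 315 CPM in eggs to the levels given above. mei-218 was at 1.71, 1.51, 1.63 and 1.46 CPM in eggs. For mei-218 the log2 fold change was 0.87 (SE 0.24, adjusted p = 0.005843) in Ctrl embryos, which turned to -1.72 with the size factors from zygotic genes, and -0.19 (SE 0.21, adjusted p = 0.4061) in DomKD embryos. DomKD embryos therefore held mei-218 at a level not distinguished from that of eggs, from 24 to 29 counts per egg library.

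mei-P22 was at 1.65, 1.22, 1.07 and 1.34 CPM in eggs, from 26, 21, 19 and 22 counts. It was lower in Ctrl embryos, with a log2 fold change of -1.69 (SE 0.39, adjusted p = 0.002074). In DomKD embryos the value was -0.76 (SE 0.30, adjusted p = 0.03363), the libraries overlapped, and the call was lost in 5 of 8 fits that left out 1 library (DomKD replicate 1, 2 or 3, or egg replicate 1 or 4), where the log2 fold change over all 8 ranged from -1.01 to -0.57. mei-W68 was at 1.33, 1.86, 1.29 and 1.58 CPM in eggs. It was not called in Ctrl embryos (0.31, SE 0.25, adjusted p = 0.2636) or in DomKD embryos (0.23, SE 0.23, adjusted p = 0.3549), and with the size factors from zygotic genes these values turned to -2.27 and -2.07.

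Other genes of the meiotic programme were taken from 6 lists of 67 genes, of which 66 were in the table and 60 had enough counts. Between DomKD and Ctrl embryos 6 of the 60 rose (10%) and 13 fell (21.7%), with a median log2 fold change of -0.024, against 10.6% higher, 15.5% lower and a median of 0.0028 over all genes. None of the 6 reached the size of the difference in corolla. Without Ctrl replicate 4 the number that rose was 2, without DomKD replicate 2 it was 3, and with size factors from zygotic genes 2 rose and 8 fell.

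Of the cohesin core and its regulators 4 of 11 fell and 0 rose, where 15.5% of all genes tested were lower and 10.6% higher. With 11 genes the list is too small to be read apart from these shares. The 7 genes not called had log2 fold changes between -0.12 (mei-S332) and 0.18 (vtd, adjusted p = 0.1408), so the list did not fall as a whole. Proteins of this list also serve mitosis, which fills the first hours of the embryo. SMC1, a core subunit, was at 23.5, 22.8 and 28.0 CPM in Ctrl embryos and at 4.33, 5.41, 7.01 and 5.45 CPM in DomKD embryos. Its log2 fold change was -2.17 (SE 0.16, adjusted p = 8.959e-05), and eggs held 249 to 282 CPM. SA1, a subunit that binds the ring, was at 26.9, 24.3 and 33.8 CPM in Ctrl and at 6.17, 6.53, 8.61 and 4.13 CPM in DomKD embryos, or -2.17 on the log2 scale (SE 0.21, adjusted p = 0.0002494). SMC3, the partner of SMC1, fell by 1.12 on the log2 scale (SE 0.13, adjusted p = 0.000409), and dmt, a protector of cohesion, fell by 0.97 (SE 0.10, adjusted p = 0.00031). In each of these 4 called genes the DomKD libraries were all below the Ctrl libraries, as in 17.9% of all genes tested, and the egg levels of SMC1, SMC3, SA1 and dmt were higher than those of both embryo groups.

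Of the partners in break formation and crossing over 3 of 11 fell and 0 rose, where 15.5% of all genes tested were lower and 10.6% higher. A list of 11 genes is too small to be read apart from these shares. rec, an MCM-related gene that works with mei-218 in crossover formation, was at 6.71, 5.41 and 7.61 CPM in Ctrl and at 0.666, 1.52, 1.42 and 1.03 CPM in DomKD embryos. Its log2 fold change was -2.49 (SE 0.26, adjusted p = 0.0003137). narya, a RING-domain gene needed for breaks, was at 10.3, 10.8 and 12.8 CPM in Ctrl and at 2.50, 1.91, 4.17 and 4.12 CPM in DomKD embryos, or -1.85 on the log2 scale (SE 0.25, adjusted p = 0.001025). trem, a zinc-finger gene that acts before mei-P22, had a log2 fold change of -0.54 (SE 0.13, adjusted p = 0.01465). rec and mei-218 thus both fell, rec to 8 to 23 counts per DomKD library. The call for mei-218 was lost without Ctrl replicate 4 and with a replicate block.

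In the checkpoint list 3 of 10 fell and 1 rose, too few genes to be read apart from the 15.5% lower and 10.6% higher over all genes tested. nbs, a break repair gene, fell by 1.10 on the log2 scale (adjusted p = 0.003258), mei-41, the ATR kinase of the fly, fell by 0.85 (adjusted p = 0.003011), and Rad9, of the clamp that senses damage, fell by 0.59 (adjusted p = 0.04707). mre11, a partner of nbs, rose by 0.19 (adjusted p = 0.04328).

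In the list for oocyte choice and the karyosome 2 of 8 rose and 0 fell. Over all genes tested 10.6% were higher and 15.5% lower, and 8 genes cannot be read apart from these shares. egl, which carries RNAs into the oocyte with BicD, was at 52.3, 37.6 and 37.4 CPM in Ctrl and at 84.2, 94.1, 88.1 and 113 CPM in DomKD embryos. Its log2 fold change was 1.15 (SE 0.15, adjusted p = 0.0007422), the largest rise among the 60 genes, and eggs held 289 to 333 CPM. stwl, a gene for a chromatin protein of the germline, had a log2 fold change of 0.19 (adjusted p = 0.03197). Like c(3)G, egl rose in DomKD embryos and is abundant in eggs, but so are SMC1, SMC3, SA1 and dmt, which fell. Of the 6274 maternally deposited genes tested, 10.5% were higher and 13.2% lower.

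In the spindle list 2 of 10 fell and 0 rose, the kinesin genes Klp3A (log2 fold change -0.69, adjusted p = 0.006244) and sub (-0.20, adjusted p = 0.02947). In the list for completion of meiosis and egg activation 3 of 10 rose and 1 fell. Neither list is large enough to be read apart from the 10.6% higher and 15.5% lower over all genes tested. png, a kinase gene that drives translation at egg activation, had a log2 fold change of 0.78 (adjusted p = 0.009633). wisp, a poly(A) polymerase gene, had 0.41 (adjusted p = 0.01279), and sra, a calcineurin regulator, 0.34 (adjusted p = 0.01895). cmet, a kinetochore kinesin gene, fell by 0.52 (adjusted p = 0.01514). The plot of log2 fold changes by list shows corolla to the right of all of them.

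**Figure D3:**
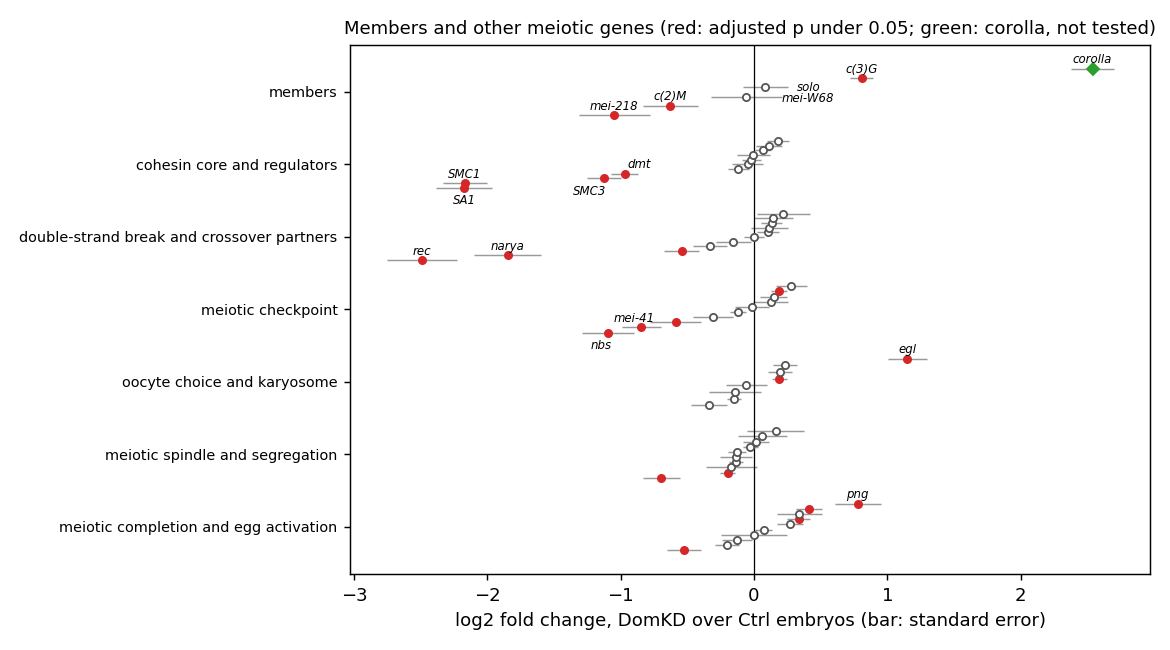
log2 fold change of DomKD over Ctrl embryos for the tested genes of the set and for 60 other meiotic genes in 6 lists, with bars of 1 SE; red points had an adjusted p under 0.05, open points did not, and the green diamond is corolla, which was not tested. corolla stands at 2.54, the next highest values are egl at 1.15 and c(3)G at 0.81, and the lowest are rec at -2.49 and SMC1 and SA1 at -2.17.

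Markers of germ plasm and pole cells, follicle cells and eggshell, the male germline and later embryo stages were read alongside. The 9 germ plasm and pole cell genes summed to 1147 to 1451 CPM in Ctrl and 1109 to 1465 CPM in DomKD embryos, ranges that overlap, and to 5424 to 5724 CPM in eggs. In DomKD embryos 1 of 9 was higher (vas) and 1 lower (tud, log2 fold change -0.58, adjusted p = 0.008271). These 9 are too few to be read apart from the 10.6% higher and 15.5% lower over all genes tested. The 13 follicle cell and eggshell genes summed to 0.942 to 18.3 CPM in Ctrl and 0.442 to 4.42 CPM in DomKD embryos, a wide spread between Ctrl libraries. The 3 tested, Yp1, Yp2 and Yp3, were not called (adjusted p of 0.1789 to 0.2695). Their highest Ctrl counts were 94, 79 and 83. Their log2 fold changes were -1.95 to -2.57 with SEs of 1.22 to 1.31, so the lack of a call does not show equal levels. Cp16, Cp38 and Vm26Aa were at 0 everywhere.

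The 11 male germline genes summed to 15.7 to 17.8 CPM in Ctrl and 15.5 to 18.7 CPM in DomKD embryos, with Mst87F, Mst98Ca and dj at 0 in every library. Of the 2 tested, bol, a gene for entry into the meiotic divisions of males, rose from a mean of 4.26 to 11.4 CPM (log2 fold change 1.41, adjusted p = 0.001453), and mia, a regulator of testis genes, fell from 11.8 to 5.45 CPM (-1.12, adjusted p = 0.00118). The 12 genes of later stages summed to 304 to 354 CPM in Ctrl and 409 to 441 CPM in DomKD embryos, which do not overlap, but to 905 to 918 CPM in eggs. CtsL1 made up most of that sum (log2 fold change 0.37, adjusted p = 0.004283) and was highest in eggs, with a mean of 909.9 CPM. Obp99a, the other of the 2 tested, rose from a mean of 4.57 to 7.20 CPM (log2 fold change 0.65, adjusted p = 0.02847) and was at 0.0152 CPM in eggs. Cpr64Ab, Cpr49Aa and Lcp65Ab1 were at 0 everywhere. With 2 genes tested in each, the male germline and later stage lists cannot be read apart from the 10.6% higher and 15.5% lower over all genes tested. The part of any of the marker lists in the levels of corolla or c(3)G was not tested.

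Of the neighbours of corolla, 1 rose and 1 fell. The gene body of 13 others lies within 50 kb of it, and 11 were tested. Their median log2 fold change was 0.022, and 2 of the 11 were called, where 26.1% of all genes tested were. On chromosome X as a whole 154 of 1328 genes tested were higher and 143 lower, with a median of 0.038. On chromosomes 2 and 3 together 644 of 6256 were higher and 1021 lower, with a median of -0.0066. The shares over all genes tested were 10.6% higher and 15.5% lower, and a difference between chromosomes was not tested. ND-24, a gene of respiratory complex I, lies 41 nt from corolla and is read in the other direction. It was at 33.5, 37.5 and 26.7 CPM in Ctrl embryos and at 36.1, 37.4, 37.9 and 41.8 CPM in DomKD embryos. The groups overlapped, with a log2 fold change of 0.22 (SE 0.12, adjusted p = 0.2123). CG8326, the next gene downstream, had a log2 fold change of -0.073 (SE 0.095, adjusted p = 0.6054).

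CG12991, whose start lies 52186 nt downstream, was at 2.79, 2.43 and 1.73 CPM in Ctrl embryos and at 12.2, 13.5, 9.85 and 10.2 CPM in DomKD embryos. All DomKD libraries were above all Ctrl libraries, which held in this direction for 17% of all genes tested. The log2 fold change was 2.28 (SE 0.21, adjusted p = 0.0001895). The genes between corolla and CG12991 that could be tested, CG8326, stas and X11L, were not called. beta-Spec, a spectrin gene on the other side, fell by 0.45 on the log2 scale (SE 0.092, adjusted p = 0.006455).

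**Figure D4:**
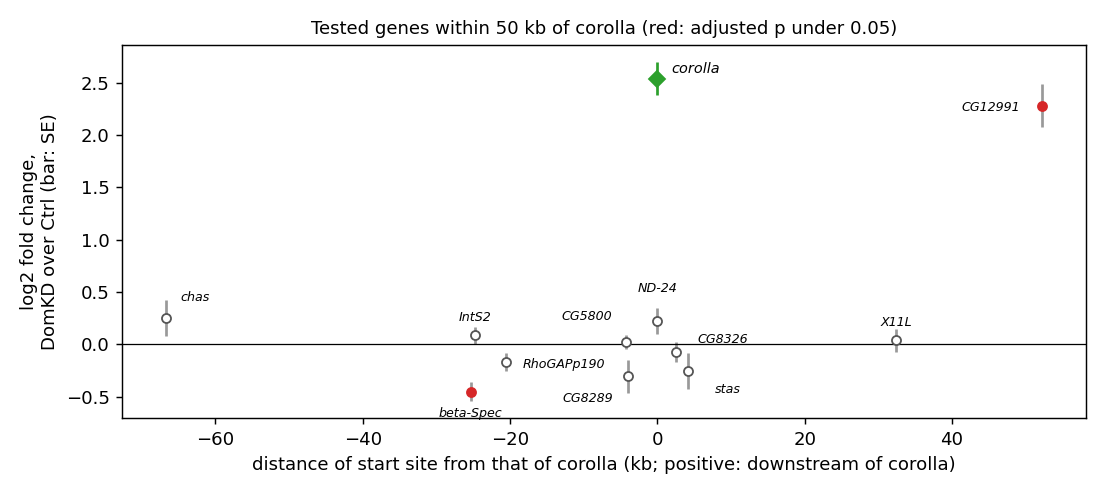
log2 fold change of DomKD over Ctrl embryos, with bars of 1 SE, for the 11 tested genes whose body lies within 50 kb of corolla, against the distance of their start sites from that of corolla in kb; red points had an adjusted p under 0.05 and the green diamond is corolla. corolla at 2.54 and CG12991 at 2.28 stand apart, and the other 10 genes lie between -0.45 and 0.25.

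Genes whose levels ran most like that of corolla were found by the correlation of log2 CPM over the 11 libraries, among the 7605 genes that averaged 10 counts or more. The 3 groups set most of this likeness, so it is a description of group means rather than of single libraries. The 5 highest were nonA-l (r = 0.995), Cbs, the cystathionine beta-synthase gene (0.995), alpha-Man-Ia, a Golgi mannosidase gene (0.993), pita, a zinc-finger gene (0.993), and stw (0.993). Their order across groups was that of corolla, with smaller steps: stw had means of 26.2 CPM in eggs, 50.02 CPM in Ctrl embryos and 99.3 CPM in DomKD embryos. Of the other meiotic chromosome genes, solo was nearest with r = 0.85, then mei-W68 with 0.34 and c(3)G with 0.21. mei-218 had -0.14, mei-P22 -0.45 and c(2)M -0.94. A total of 454 genes had r over 0.95, and 0 of the 5 were among the 5 highest by Spearman's rho.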

How the data were processed

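The authors trimmed the reads and mapped them to dm6 in snakePipes (mRNA-seq), and featureCounts gave counts per gene of Ensembl release 96. Deposited are these raw counts, not normalized, with exon lengths. The libraries came from a stranded total RNA kit. The aligner, whether counting used strand, and the treatment of reads with several positions are not given in the sources used here. The count table holds 1 further column of per-sample values, whose name reads as replicate 1 of Ctrl stage 5 embryos but matched no listed sample, and it was not used.

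Counts were tested in R 4.3.3 with edgeR 4.0.16 (quasi-likelihood, TMM, Benjamini-Hochberg over all genes tested, threshold 0.05) on the libraries compared and on genes that averaged 10 counts or more in them. The SE is the size of the log2 fold change divided by the square root of F, and intervals are 1.96 SE to each side. CPM use TMM over the 11 libraries, with a prior count of 2 on the log2 scale. TPM were computed from counts and exon lengths. The biological coefficient of variation was 11.6% between embryo groups. Positions and symbols came from Ensembl release 115, which places 17626 of 17753 genes; mnm, an isoform of another gene, was given no value. The 10 genes, the lists and the markers were chosen with earlier results of these data known. Besides them, the text names by rule dom, up to 3 called genes per list and direction by size, overlapping and nearest genes, and the 5 genes most like corolla. The genes dmt, CG12991, beta-Spec, stas, X11L and the single markers were named after their values were seen. Scripts were tested on simulated data. Alternatives covered scaling (RLE, library size, upper quartile, size factors from zygotic genes), DESeq2 1.42.0, the filter, all 11 libraries in 1 fit, a replicate block and each library left out. Zygotic genes for the size factors were those not maternally deposited and over 5 TPM on average in Ctrl embryos. Figures used Python 3.11.15 and matplotlib 3.10.9.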

Additional observations from a re-analysis of the deposited data

Results flagged for a closer look

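In 2 of 18 sets of 4 libraries 1 library lay far from the other 3, where chance gives about 1 in 20, or 0.9 of 18. ord in egg replicate 1 was at 0.127 CPM, from 2 counts, against 0.0561 to 0.0609 CPM in the other eggs. sunn in egg replicate 1 was at 0 CPM, from 0 counts, against 0.0561 to 0.0609 CPM in the other eggs. Both differ by 1 count from the other libraries.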

How the results depend on the processing

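Of 315 values of single genes under alternatives, 282 kept their direction and, where the gene was tested, its call. For corolla, which has no call, this means a move smaller than the spread between replicates. corolla stayed between 2.42 and 2.66 in DomKD against Ctrl embryos over 16 alternatives, and c(3)G between 0.75 and 0.92. The 2015 genes called between these groups became 955 with size factors from zygotic genes, 1201 with a filter at a mean of 100 counts and 1292 to 1816 with 1 library left out. The share of calls that were lower was 59.3%, 72% with library size alone and 70.4% with zygotic size factors, which moved the median of all genes to 0.10. Of the other genes of the set 3 were called, and 1 to 3 with 1 library left out. In Ctrl embryos against eggs 5 became 2 with the filter at 100 counts, which leaves fewer genes tested, and in DomKD embryos against eggs 3 became 6 with zygotic size factors and 1 with that filter. With a limit of 1 TPM, 5 genes in place of 2 were maternally deposited, and 0 of the 5 genes most like corolla remained with Spearman's rho.

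The sign of mei-W68 in DomKD against Ctrl embryos turned to 0.020 with zygotic size factors, 0.037 with the replicate block, and it ranged from -0.20 to 0.14 with 1 library left out, above 0 without Ctrl replicate 2 (0.14), DomKD replicate 1 (0.028) or DomKD replicate 4 (0.032). Zygotic size factors by construction centre genes below the maternal limit in eggs and over 5 TPM on average in Ctrl embryos. These factors turned solo to -1.70, mei-W68 to -2.27 and mei-218 to -1.72 in Ctrl embryos against eggs. In DomKD embryos against eggs they turned c(3)G to -2.14, solo to -1.36 and mei-W68 to -2.07. The share of calls that were lower rose from 45.7% to 91% and from 46.8% to 91.9% there. The cause of the other changes was not tested.

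Deviations of same-numbered Ctrl and DomKD libraries from their group means correlated at 0.052, -0.060 and -0.37, so no shared deviation by replicate number was seen. Whether same-numbered libraries were collected together is not stated. A replicate block on these numbers leaves out DomKD replicate 1. With this block 1221 genes were called between these groups and 1 of the other genes of the set, c(3)G. Genes with few counts limit the precision: ord, sunn and cona could not be compared at this depth.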
